A study of Mus musculus with 8 samples.

Results

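The genes described here are the 7 subunit genes of the NMDA receptor (Grin1, Grin2a, Grin2b, Grin2c, Grin2d, Grin3a and Grin3b), taken by symbol from the 32285 genes of the deposited gene list. All 7 were found. The NMDA receptor is a glutamate-gated calcium channel of excitatory synapses. It is assembled from the obligatory subunit GluN1, encoded by Grin1, with GluN2 subunits, encoded by Grin2a to Grin2d, and in some receptors GluN3 subunits, encoded by Grin3a and Grin3b. In the rodent cortex the receptor is known for a postnatal shift from GluN2B towards GluN2A, which shortens the synaptic current. The GluN2 subunit sets channel kinetics and magnesium block, and GluN3 subunits lower calcium permeability.

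RNA was counted in single nuclei of the cortex of 8 C57BL/6J mice at postnatal day 25, with 1 library per animal. There were 4 wild type (WT) libraries, from 2 males and 2 females, and 4 libraries from Chd8 heterozygous mice (Chd8het), again from 2 males and 2 females. Chd8 encodes a chromatin remodeller. The medial cortex had been removed and the tissue frozen before nuclei were isolated. In each group of sex and genotype, replicate 1 had been sequenced with a single index and replicate 2 with dual indexes. Which Chd8 allele they carried was not stated in the labels.

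The libraries held 69503598 to 98132783 UMIs (unique molecular identifiers, each counted as 1 RNA molecule), and 77890 nuclei were kept, 7503 to 10988 per library. Of 96608 distinct barcodes, 1149 occurred in 2 or more libraries. Chd8 itself did not separate the genotypes. Over all kept nuclei its level was 78.9 ± 2.77 CPM (counts per 1000000 UMIs, SD, n = 4) in WT and 80.2 ± 6.31 CPM (SD, n = 4) in Chd8het (two-sided exact permutation test, p = 0.857). Counts over the whole gene need not drop when an allele loses only a part of it, so the genotype labels could not be checked from these counts, and the group names follow the labels.

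Nuclei were clustered without the subunit genes and the clusters were named by marker genes, so a name means resemblance to a class. Levels were compared over 19 cell types with at least 30 nuclei in every library. These were 8 excitatory types, 4 interneuron types and 7 glial or vascular types. The excitatory types were intratelencephalic (IT) neurons of layers 2/3, 4/5, 5 and 6, extratelencephalic (ET) neurons of layer 5, near-projecting (NP) neurons, corticothalamic (CT) neurons and layer 6b neurons. The interneuron types were Pvalb, Sst, Vip, and Lamp5 with Sncg. Where excitatory nuclei or interneurons are pooled below, the pools hold the nuclei of the named types: 35397 excitatory nuclei, of which 201 are Car3 IT neurons, a type too small to be tested by itself, and 6911 interneurons. Clusters left unnamed are outside these pools, and excitatory nuclei or interneurons they may hold are not counted in them. Droplets also catch free RNA, so microglia, the immune cells of the brain, serve here as a gauge of how much of a neuronal gene appears in nuclei of another lineage. Microglial nuclei held 0.20 UMIs of Grin1, 0.735 of Grin2a and 0.721 of Grin2b on average.

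Grin1, the subunit that every NMDA receptor contains, ranged less among neurons than Grin2a and Grin2b did. It lies on the minus strand of chromosome 2 at 25291181 to 25319187 (GRCm38, as are all coordinates here) and spans 28.0 kb. Its mean level ran from 374.7 CPM in layer 6b to 575.9 CPM in layer 5 ET neurons, and interneurons were at 390.4 (Pvalb) to 453.3 CPM (Sst). In layer 2/3 IT neurons the 8 libraries lay between 503.4 and 568.9 CPM, with a median of 541.9. Glial and vascular types held 0.20 to 0.388 UMIs of Grin1 per nucleus, against 2.33 (Vip) to 7.99 (layer 5 ET) in neurons. Grin1os, an antisense gene, overlaps Grin1, and as no source used here gives the strand setting of the counting, reads of both cannot be told apart.

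Grin2a and Grin2b, which encode the GluN2A and GluN2B subunits of most cortical NMDA receptors, were detected in every neuronal type at high levels. Grin2a spans 427.7 kb of chromosome 16 (9567898 to 9995560, minus strand) and Grin2b 460.3 kb of chromosome 6 (135713233 to 136173511, minus strand). Grin2a had its highest mean in Lamp5 and Sncg interneurons, at 2411 ± 361 CPM (SD, n = 8), followed by layer 2/3 IT neurons at 2321 ± 493 CPM (SD, n = 8). With nuclei named by their own marker score layer 2/3 IT neurons led, and per nucleus layer 5 ET neurons did, for both genes. Grin2a was lowest among neurons in Vip interneurons, at 793 ± 132 CPM (SD, n = 8), and in layer 6b neurons, at 983 ± 187 CPM (SD, n = 8). Grin2b varied less, from 1307 ± 141 CPM in NP neurons to 2249 ± 432 CPM in layer 2/3 IT neurons (SD, n = 8 each).

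How the levels of different genes compare depends on the scale, and a UMI is counted as 1 RNA molecule whatever the gene's length. In plain CPM, layer 2/3 IT neurons had Grin2a at 2321, Grin2b at 2249 and Grin1 at 537.7. In layer 2/3 IT neurons, per kb of gene span, Grin1 stood at 19.2 CPM, Grin2a at 5.43 and Grin2b at 4.89. Per kb of annotated exon the order was Grin2a at 129.4 CPM, Grin2b at 90.5 and Grin1 at 55.4. In these means Grin2a stood above Grin2b on every scale, and Grin1 was first per kb of gene span and last otherwise. By library, Grin2a exceeded Grin2b in plain UMIs in only 4 of 8.

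**Figure D1:**
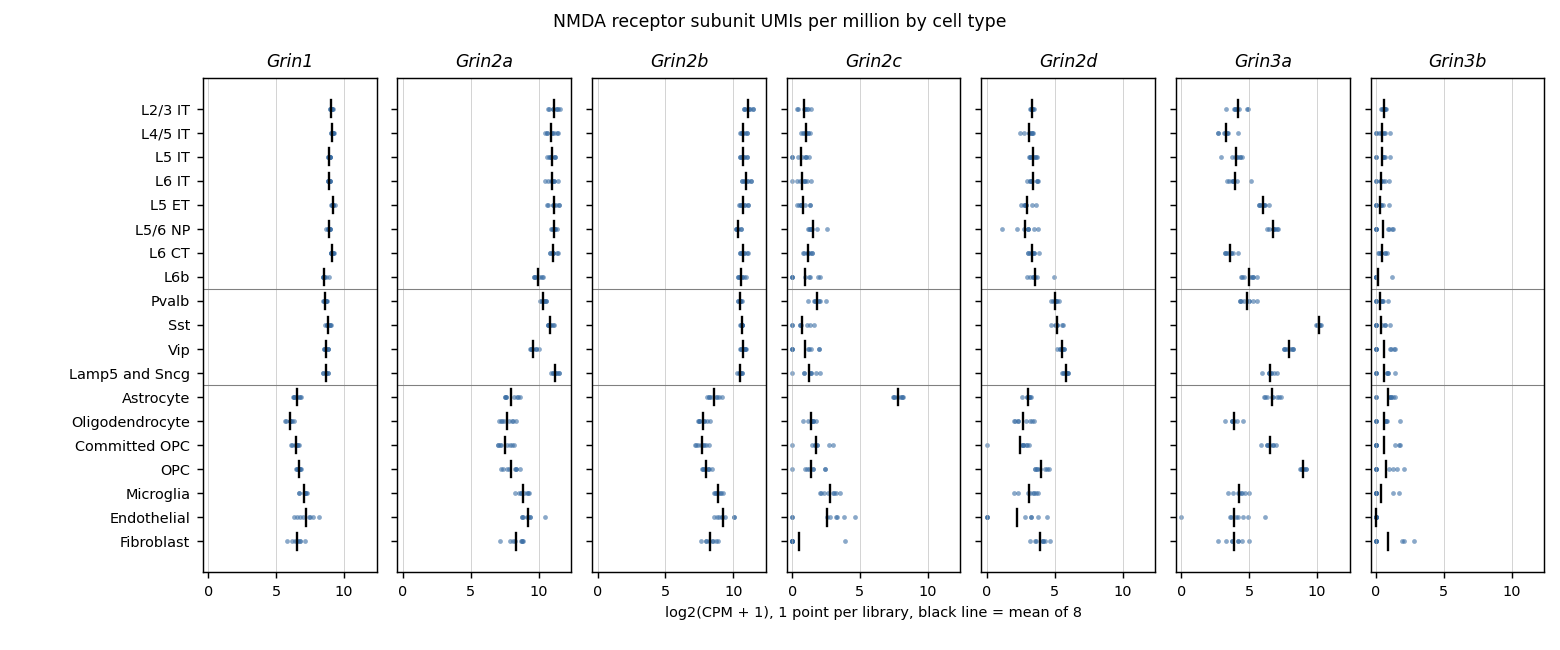
Level of each subunit gene, log2(CPM + 1) on the x axis, in the 19 cell types on the y axis, with 1 point per library and the mean of 8 as a black line; grey lines part excitatory, interneuron and other types. Grin1, Grin2a and Grin2b are high in all neurons, Grin2c stands out in astrocytes (mean 227.5 CPM), Grin2d in interneurons and Grin3a in Sst interneurons (1104 CPM) and OPCs (499 CPM).

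Among the other members, Grin2c was an astrocyte gene in these data. Grin2c encodes GluN2C, a subunit known from cerebellar granule cells and astrocytes, and lies on chromosome 11 at 115249169 to 115267243 on the minus strand. Astrocytes had 227.5 ± 45.7 CPM (SD, n = 8), and their libraries ran from 174.2 to 284.4 CPM with a median of 224.2. Endothelial nuclei came next at 8.04 CPM, and excitatory types lay between 0.68 and 2.06 CPM. The astrocyte level was above the endothelial level in 8 of 8 libraries, by 5.27 ± 1.79 on the log2(CPM + 1) scale (SD, n = 8). Per nucleus, astrocytes held 0.639 Grin2c UMIs and microglia 0.00942.

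The bases upstream of the start site are shown for Grin2c, the member most restricted to 1 cell type, and for Grin1, the member that all NMDA receptors share. Each run is the 250 bases before the RefSeq start (GRCm38.p6, minus strand, chr11:115267244-115267493 for Grin2c and chr2:25319188-25319437 for Grin1), 5′ to 3′, with GC boxes (GGGCGG, either strand) in capitals.
Grin2c: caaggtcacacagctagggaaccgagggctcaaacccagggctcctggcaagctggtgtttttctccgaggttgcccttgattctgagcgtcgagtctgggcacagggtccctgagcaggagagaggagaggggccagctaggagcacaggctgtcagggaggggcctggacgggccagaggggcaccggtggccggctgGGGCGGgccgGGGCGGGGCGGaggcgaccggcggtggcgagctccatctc
Grin1: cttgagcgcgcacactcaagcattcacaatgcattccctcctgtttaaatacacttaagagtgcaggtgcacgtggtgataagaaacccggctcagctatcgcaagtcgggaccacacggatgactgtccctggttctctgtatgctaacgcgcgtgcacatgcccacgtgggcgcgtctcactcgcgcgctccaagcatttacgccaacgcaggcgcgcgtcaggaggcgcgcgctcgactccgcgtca
The Grin2c run holds 3 GC boxes and 15 CpG dinucleotides. The Grin1 run holds 0 GC boxes and 27 CpG dinucleotides. Of all 32851 RefSeq promoters of this length, 32.7% hold a GC box, and their median number of CpG dinucleotides is 6.

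Grin2d, which encodes GluN2D, was higher in interneurons than in excitatory neurons. The gene lies on chromosome 7 at 45831883 to 45878378 on the minus strand. Lamp5 and Sncg interneurons had 55.4 ± 6.45 CPM, Vip 44.9 ± 5.4, Sst 36.0 ± 6.91 and Pvalb 31.9 CPM (SD, n = 8). The 8 excitatory types lay between 6.79 CPM (NP) and 12.1 CPM (layer 6b). The lowest interneuron type, Pvalb, was above the next type, fibroblasts at 15.2 CPM, in 8 of 8 libraries. Among the interneuron types, Lamp5 and Sncg interneurons were above Vip interneurons in 7 of 8 libraries, by 0.30 ± 0.23 on the log2(CPM + 1) scale (SD, n = 8, exact sign-flip test, unadjusted p = 0.0156, adjusted p = 0.0856). The steps from Vip to Sst and from Sst to Pvalb were seen in 6 and 4 of 8 libraries. Kdelr1 overlaps Grin2d on the opposite strand, so part of the low counts could belong to it.

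Grin3a, which encodes the modulatory GluN3A subunit, was led by Sst interneurons. The gene lies on chromosome 4 at 49661611 to 49845744 on the minus strand. Sst interneurons had 1104 ± 95.6 CPM (SD, n = 8), with libraries from 958.2 to 1258 CPM and a median of 1091. Oligodendrocyte precursor cells (OPCs), the dividing glia that give rise to myelinating cells, came next at 499 ± 59.5 CPM (SD, n = 8). Vip interneurons followed at 240.2 ± 46.9 CPM (SD, n = 8), and NP neurons at 109.6 ± 19.0 CPM (SD, n = 8). Each of these 3 steps was seen in 8 of 8 libraries, with differences of 1.15, 1.07 and 1.12 on the log2(CPM + 1) scale.

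NP neurons, astrocytes at 108.0 CPM, Lamp5 and Sncg interneurons at 94.0 CPM and committed oligodendrocyte precursors at 91.3 CPM did not pass the test between neighbours (adjusted p = 0.762 to 0.967, exact sign-flip tests over 8 libraries). Mature oligodendrocytes were at 13.8 CPM. Within the oligodendrocyte lineage the mean Grin3a level per nucleus was 1.52 UMIs in OPCs, 0.373 in committed precursors and 0.0485 in oligodendrocytes, against 0.0298 in microglia. In the IT and CT excitatory types Grin3a lay between 8.99 and 17.8 CPM, and in layer 5 ET neurons it was at 63.7 CPM. Layer 5 ET neurons were above layer 6b neurons, the next type at 31.9 CPM, in 8 of 8 libraries, by 1.00 ± 0.39 on the log2(CPM + 1) scale (SD, n = 8).

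Grin3b, the other GluN3 gene, was close to absent from the counts. It gave 258 UMIs over all 77890 nuclei and no more than 1.49 CPM on average in any of the 19 types, and it entered no genotype test in any of them. Its gene on chromosome 10 (79970715 to 79977190, plus strand) overlaps Tmem259 on the opposite strand.

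The mix of subunits was described as each member's share of all subunit UMIs of a type, per kb of annotated exon. The shares depend on this choice of scale. Microglia, as a gauge of free RNA, had 41.5% ± 4.68 Grin2a, 29.9% ± 0.789 Grin2b and 21.9% ± 4.46 Grin1 (SD, n = 8 each). Layer 2/3 IT neurons had 46.1% ± 4.34 Grin2a, 32.4% ± 3.23 Grin2b and 20.3% ± 3.59 Grin1 (SD, n = 8 each). In Sst interneurons Grin3a held 29.2% ± 1.09 on this scale, nearly as much as Grin2a with 33.2% ± 2.02 (SD, n = 8 each). In plain CPM, Grin3a in Sst interneurons (1104) was below Grin2a (1837) and Grin2b (1563). In Vip interneurons Grin2b led with 37.8% ± 2.80, and Grin3a held 10.8% ± 2.23 (SD, n = 8 each). OPCs had their largest share in Grin3a, at 51.8% ± 3.75, and astrocytes in Grin2c, at 47.6% ± 3.50 (SD, n = 8 each). In plain CPM, astrocytes had more Grin2b (390.3) than Grin2c (227.5). Per kb of gene span the astrocyte share of Grin2c was 68.9%, and Grin1 led in the other types named here, with 44.7% in OPCs, 52.6% in Sst interneurons, 64.5% in Vip interneurons, 64.3% in layer 2/3 IT neurons and 62.4% in microglia.

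The order of the levels was tested between neighbouring types, 126 pairs over the 7 members, with exact sign-flip tests over the 8 libraries (two-sided, smallest possible p = 0.00781). After Benjamini-Hochberg adjustment 0 pairs passed, 27 had an unadjusted p under 0.05, and 19 had the smallest p that 8 libraries can give, with an adjusted p of 0.0518. All steps described above as seen in 8 of 8 libraries are among these 19, and so is the step from Pvalb (1304 CPM) to layer 6b and from layer 6b to Vip in Grin2a. The count depends on a narrow margin: with predicted doublets kept 22 pairs passed, with stricter nucleus filters 20, and per nucleus in place of CPM 20.

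Genes with the most similar pattern over the 19 cell types were ranked by Pearson's r of the mean log2(CPM + 1), among 16458 genes. The values describe 19 points from the same libraries. For Grin1 the closest was its antisense partner Grin1os (r = 0.990), then Bicdl1 (0.982) and Gls2 (0.979). Grin2a was closest to Grin1os (0.965), Grin1 (0.964) and Gm42609 (0.959). Grin2b was closest to Gm14329 (0.990) and Gm14330 (0.986), which both overlap it on the opposite strand, and then Gm42609 (0.981). As the strand setting is not known, reads of Grin2b and of these overlapping genes cannot be told apart, in the r values and in the Grin2b level alike. Grin2c was closest to Etnppl (0.972), Cyp4f15 (0.968) and Prdm16os (0.966). Grin2d was closest to Dlx5 (0.923), Gm14204 (0.922) and Dlx2 (0.915), of which Dlx5 and Dlx2 are transcription factors of forebrain GABAergic neurons. Grin3a was closest to Elfn1 (0.879), a synaptic protein listed here as a marker of Sst interneurons, and then Samd14 (0.838) and Plpp4 (0.801).

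The Grin2a to Grin2b ratio, the transcript counterpart of the GluN2A to GluN2B balance, was computed per library from the summed UMIs of each type and is given as a log2 value. Differences in gene length add a constant to it: 0.11 would be added per kb of gene span and 0.47 per kb of exon. So its sign is a matter of scale, and its differences between types are not. It was compared over the 17 cell types with at least 50 UMIs of both genes in every library.

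The ratio was highest in NP neurons, with a mean log2 of 0.78 ± 0.10 (SD, n = 8), or 1.72 Grin2a UMIs per Grin2b UMI. Lamp5 and Sncg interneurons followed at 0.72 ± 0.14 (SD, n = 8). Layer 5 ET neurons stood at 0.37 ± 0.21, CT neurons at 0.33 ± 0.12 and layer 5 IT neurons at 0.23 ± 0.10 (SD, n = 8 each). Layer 2/3 IT neurons stood at 0.04 ± 0.25 and layer 6 IT neurons at 0.01 ± 0.25 (SD, n = 8 each). At the low end, layer 6b neurons stood at -0.66 ± 0.10 (SD, n = 8), and Vip interneurons at -1.12 ± 0.14 (SD, n = 8), or 0.46 Grin2a UMIs per Grin2b UMI. The 2 neuronal types at the low end were below 0 in all 8 libraries. NP, Lamp5 and Sncg, layer 5 ET, CT, layer 5 IT and Sst neurons were above 0 in all 8.

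**Figure D2:**
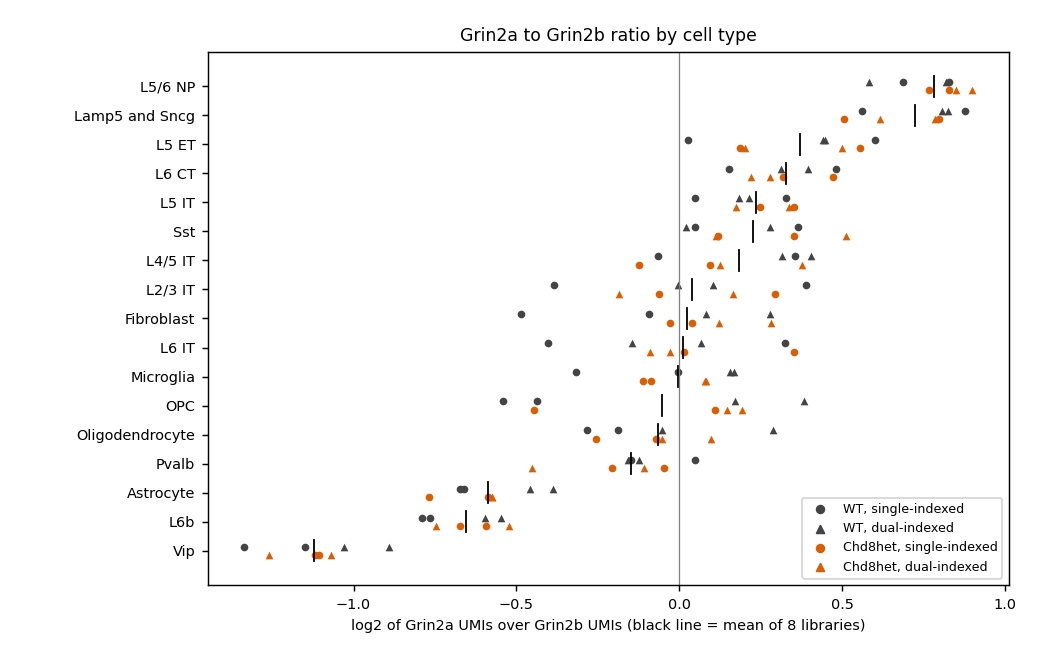
The log2 of Grin2a over Grin2b UMIs on the x axis for 17 cell types, ordered by their mean (black line), with 1 point per library; grey points are WT and orange points Chd8het, circles single-indexed and triangles dual-indexed. The means run from 0.78 in NP neurons to -1.12 in Vip interneurons, and WT and Chd8het points are mixed within each type.

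Of the steps in this order 3 passed the test between neighbours (16 pairs, exact sign-flip tests over 8 libraries, adjusted p = 0.0417 each). Lamp5 and Sncg interneurons were above layer 5 ET neurons by 0.35 ± 0.09 (SD, n = 8). Pvalb interneurons were above astrocytes by 0.44 ± 0.21 (SD, n = 8). Layer 6b neurons were above Vip interneurons by 0.46 ± 0.08 (SD, n = 8). The step from NP neurons to Lamp5 and Sncg interneurons did not pass (adjusted p = 0.714), and the 12 types from layer 5 ET to Pvalb formed a run in which no neighbours passed the test (adjusted p = 0.0938 to 0.945). With nuclei named by their own marker score, 0 steps passed, and Lamp5 and Sncg interneurons stood above NP neurons. The distance from NP neurons to Vip interneurons was then 1.10, against 1.90 with nuclei named by cluster. Over all 13 alternatives it ran from 1.10 to 2.09.

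Microglia, the gauge of free RNA used here, had a log2 ratio of -0.0046 ± 0.16 (SD, n = 8). Free RNA itself was not measured. By library the microglial ratio ran from -0.32 (WT male 1) to 0.17 (WT male 2). Over all kept nuclei the ratio ran from -0.12 (WT female 1) to 0.36 (WT male 1). Subtracting the microglial UMIs per nucleus left the order of the 12 neuronal types as it was. Among these types 3 steps passed, not the same 3 as above, because the step from Pvalb interneurons to astrocytes has no place there. Oligodendrocytes at -0.06 ± 0.19 and OPCs at -0.05 ± 0.36 (SD, n = 8 each) lay at the microglial ratio, with 0.752 and 0.809 Grin2a UMIs per nucleus against 0.735. Astrocytes lay at -0.59 ± 0.12 (SD, n = 8) and below microglia in 8 of 8 libraries, a comparison chosen after the values were seen. Their Grin2a, at 0.744 UMIs per nucleus, was near the microglial 0.735, and their Grin2b, at 1.10, was above the microglial 0.721.

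The ratio differed inside the cell types that hold more than 1 cluster with at least 50 UMIs of both genes in every library. Sst interneurons and fibroblasts also hold several clusters, but not more than 1 with that many UMIs. The clusters were made from other genes of the same nuclei, so these values are given without a test. Pvalb interneurons fell into cluster 17 (1531 nuclei) and cluster 19 (1088 nuclei). Btbd11, Tmem132c and Erbb4 were among the 10 leading genes of both, while Eya4, Pde5a and Mybpc1 were among those of cluster 17 and Vwc2, Lama3 and Cntnap5c among those of cluster 19 alone. The log2 ratio was 0.46 ± 0.10 (SD, n = 8) in cluster 17 and -1.75 ± 0.13 (SD, n = 8) in cluster 19. Grin2a was at 1922 ± 241 CPM in the first and 452 ± 51.1 CPM in the second, while Grin2b was at 1396 ± 104 and 1512 ± 105 CPM (SD, n = 8 each). Every library showed it: the lowest value of cluster 17 was 0.32 and the highest of cluster 19 was -1.56. Cluster 19 thus lay below Vip interneurons, the lowest cell type as a whole.

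Lamp5 and Sncg interneurons were divided in the same manner. Cluster 24 (902 nuclei, led by Pde11a, Kit and Ndnf) had a log2 ratio of 1.27 ± 0.18 (SD, n = 8), with Grin2a at 3588 ± 610 CPM, the highest level of any named cluster. Its ratio lay above that of NP neurons (0.78), the highest cell type as a whole. Cluster 32 (473 nuclei, led by Adarb2, Frem1 and Col14a1) had a ratio of -0.73 ± 0.23 (SD, n = 8), with Grin2a at 863 ± 142 CPM. Grin2b was at 1475 ± 166 and 1423 ± 142 CPM, so the pair differed in Grin2a and hardly in Grin2b. Predicted doublets were clustered with the other nuclei and removed before counts were summed. They had made up 1.53% of cluster 24 and 23.5% of cluster 32. Their part in the difference was not tested.

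Among excitatory types the spread between clusters was smaller. In layer 2/3 IT neurons clusters 3, 4 and 10 had mean log2 ratios of 0.04, -0.14 and 0.31. In layer 4/5 IT neurons clusters 7 and 16 had 0.27 and 0.06, and in layer 5 IT neurons clusters 9 and 35 had 0.19 and 0.53. Cluster 35 held 464 nuclei, as few as 7 in a library, and 1.84% to 28.2% of layer 5 IT nuclei. Its ratio ran from -0.03 (WT male 1) to 0.77.

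**Figure D3:**
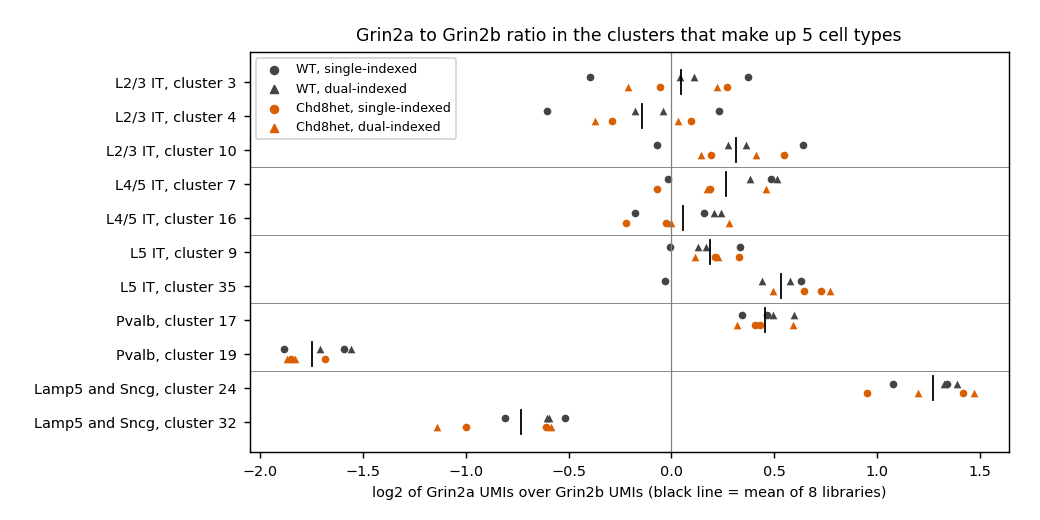
The log2 of Grin2a over Grin2b UMIs on the x axis for the clusters of 5 cell types, 1 point per library, with the mean of 8 as a black line and symbols for genotype and index type. Cluster 17 and cluster 19 of the Pvalb interneurons lie at 0.46 and -1.75, and cluster 24 and cluster 32 of the Lamp5 and Sncg interneurons at 1.27 and -0.73, with no overlap between libraries.

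In the libraries at either end of the Pvalb ratio the mix of clusters differed. Cluster 19 made up 29.9% of Pvalb nuclei in WT male 1, the library with the highest Pvalb ratio (0.05), and 50.9% in Chd8het male 2, the library with the lowest (-0.45). Its mean share was 40.1% in WT and 44.0% in Chd8het. Within cluster 17 the ratio was 0.47 ± 0.10 in WT and 0.44 ± 0.11 in Chd8het, and within cluster 19 it was -1.69 ± 0.15 and -1.81 ± 0.08 (SD, n = 4 each). The part of the mix in any genotype value was not tested.

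The question for genotype was whether Chd8 heterozygosity moved the subunits or their ratio at this age. Each gene was tested in each cell type with edgeR's quasi-likelihood test, with terms for sex and index type and Benjamini-Hochberg adjustment over all genes of the type. Over the 19 types, 89 tests were of a member and 0 were called, against 0.0201% of all 199466 tests called (40 calls). At an unadjusted p under 0.05 there were 17 member tests with a lower and 6 with a higher level in Chd8het, against 2.79% and 3.01% of all tests. The fit without a filter on low counts called 5 members' tests, against 0.189% of all its tests, and DESeq2 called 0, against 0.0687%.

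Grin2b was lower in Chd8het in each of the 8 excitatory types without passing adjustment. In the pooled excitatory nuclei the single-indexed WT libraries had 1737 (male) and 1809 CPM (female), and the dual-indexed ones 2415 (male) and 2412 CPM (female), on the scale of edgeR's TMM factors. The single-indexed Chd8het libraries had 1563 (male) and 1570 CPM (female), and the dual-indexed ones 1942 (male) and 2005 CPM (female). Within each index type both Chd8het libraries lay below both WT libraries, and across index types the genotypes overlapped. No share of all genes with this pattern is given here, so how common it is cannot be told. The log2 fold change was -0.23 ± 0.05 (SE), with an unadjusted p of 0.00067 and an adjusted p of 0.442 in edgeR's test, where 0.00518% of all genes were called. The fold change was -0.18 in the single-indexed and -0.29 in the dual-indexed libraries.

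By type the Grin2b log2 fold changes ran from -0.25 in layer 5 ET to -0.18 in layer 4/5 IT neurons. All 8 had an unadjusted p under 0.05, where 3.01% of all tests in these types had such a p with a lower level, and their adjusted p-values in edgeR's test were 0.166 to 0.902. In every one of these types Grin2b was lower in Chd8het in 4 of 4 pairs of same-sex, same-number libraries. The share of all genes lower in 4 of 4 pairs is not given here either. The 8 types come from the same 8 animals and are not independent. Under the 16 alternatives the fold change stayed below 0 in 128 of 128 fits of these types. The alternatives use the same libraries, 8 of them with 1 library left out, so the shared sign is no independent support. Of those fits 2 were called, both among the 8 without the count filter, where 0.288% of all tests in these types were.

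Grin2a was also lower in each of the 8 excitatory types, by log2 fold changes from -0.31 in layer 4/5 IT to -0.08 in NP neurons (adjusted p = 0.338 to 0.985 in edgeR's test), and 4 of them had an unadjusted p under 0.05. In the pooled excitatory nuclei the WT libraries had 2290, 2824, 1617 and 2621 CPM in the order male 1, male 2, female 1 and female 2. The Chd8het libraries had 1981, 2285, 1637 and 2024 CPM in the same order. Female 1 was thus slightly higher in Chd8het, the other pairs lower, and the genotypes overlapped. The log2 fold change was -0.22 ± 0.08 (SE, adjusted p = 0.784 in edgeR's test).

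In the pooled interneurons Grin2a had a log2 fold change of -0.20 ± 0.06 (SE, adjusted p = 0.512 in edgeR's test) and Grin2b of -0.13 ± 0.04 (SE, adjusted p = 0.566 in edgeR's test). Without the count filter the Grin2a value was -0.20 with an adjusted p of 0.00438 in edgeR's test, where 0.338% of all genes were called. Of the 4 interneuron types, Grin2a and Grin2b had negative values in all 4, with an unadjusted p under 0.05 for each gene in 2 of 4, where 2.81% of all tests had such a p with a lower level. In the glial and vascular types, which held 0.735 (microglia) to 1.65 (endothelial) Grin2a UMIs per nucleus and 0.721 to 1.63 of Grin2b, 5 of 7 Grin2a and 6 of 7 Grin2b values were above 0.

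**Figure D4:**
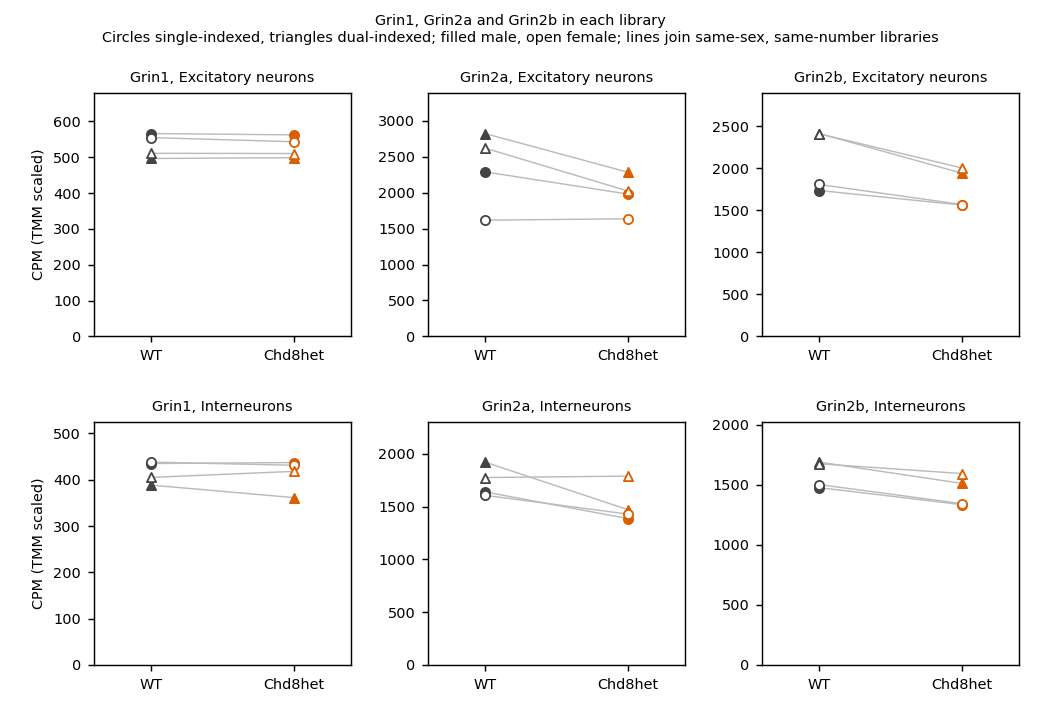
TMM-scaled CPM of Grin1, Grin2a and Grin2b on the y axis in WT and Chd8het libraries, for the pooled excitatory nuclei (top) and interneurons (bottom) of the named types; circles are single-indexed, triangles dual-indexed, filled males and open females, and grey lines join same-sex, same-number libraries. Grin2b is lower in Chd8het along all 4 lines in both classes, and Grin2a along 3 of 4.

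Grin1 showed no such offset. It was at 532 ± 33.6 CPM in WT and 528.5 ± 29.3 CPM in Chd8het (SD, n = 4 each) in the pooled excitatory nuclei, a log2 fold change of -0.01 ± 0.05 (SE). Over the 19 types its changes ran from -0.32 in endothelial nuclei to 0.28 in astrocytes, with adjusted p-values from 0.913 to 1 in edgeR's test.

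Grin3a pointed upwards in 6 of 8 excitatory types, which come from the same 8 animals and are not independent. In each of these 6 types Chd8het male 2 was the highest of all 8 libraries. This library was also the highest for Grin3a in Pvalb interneurons, astrocytes, oligodendrocytes and microglia. In the remaining types where Grin3a was tested, another library was the highest. In layer 6 IT neurons it had 33.5 CPM, against 10.4 to 13.3 CPM in the other Chd8het libraries. In layer 6b neurons these values were 45.7 and 24.2 to 40.4 CPM. The log2 fold change of the pooled excitatory nuclei was 0.32 ± 0.12 (SE, adjusted p = 0.798 in edgeR's test). It ran from 0.23 to 0.48 when any library was left out. In CT neurons the WT libraries had 8.12 to 10.0 CPM and the Chd8het libraries 11.7 to 16.7 CPM, with no overlap, a log2 fold change of 0.58 ± 0.14 (SE, adjusted p = 0.639 in edgeR's test). In layer 2/3 IT neurons the fold change was 0.68 ± 0.17 (SE, adjusted p = 0.522 in edgeR's test), with overlapping libraries. NP neurons, where Grin3a is higher, had the opposite sign, -0.31 ± 0.11 (SE, adjusted p = 0.563 in edgeR's test), and in Sst interneurons, the main site, the value was -0.02 ± 0.08 (SE).

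Over the 19 types, Grin2d in OPCs was the other member test without overlap. The WT libraries had 11.0 to 12.7 CPM and the Chd8het libraries 13.8 to 23.3 CPM, a log2 fold change of 0.67 ± 0.27 (SE, adjusted p = 0.726 in edgeR's test), from 9 to 24 UMIs per library. In all, 2 of the 89 member tests in single types had genotypes that did not overlap, against 1.97% of all tests. In the pooled interneurons Grin2c, at 0.51 to 1.72 CPM in WT and 1.84 to 2.68 CPM in Chd8het, did not overlap either (log2 fold change 0.65 ± 0.32, SE, adjusted p = 0.865 in edgeR's test). These levels are near the floor of the counts. The 1.97% covers single types, and no such share is given here for this pool. Grin2c in astrocytes had a fold change of -0.03 ± 0.10 (SE). For the interaction of sex with genotype, 0 of the 89 member tests passed in edgeR and 9 had an unadjusted p under 0.05, against 0.00401% and 3.91% of all tests.

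**Figure D5:**
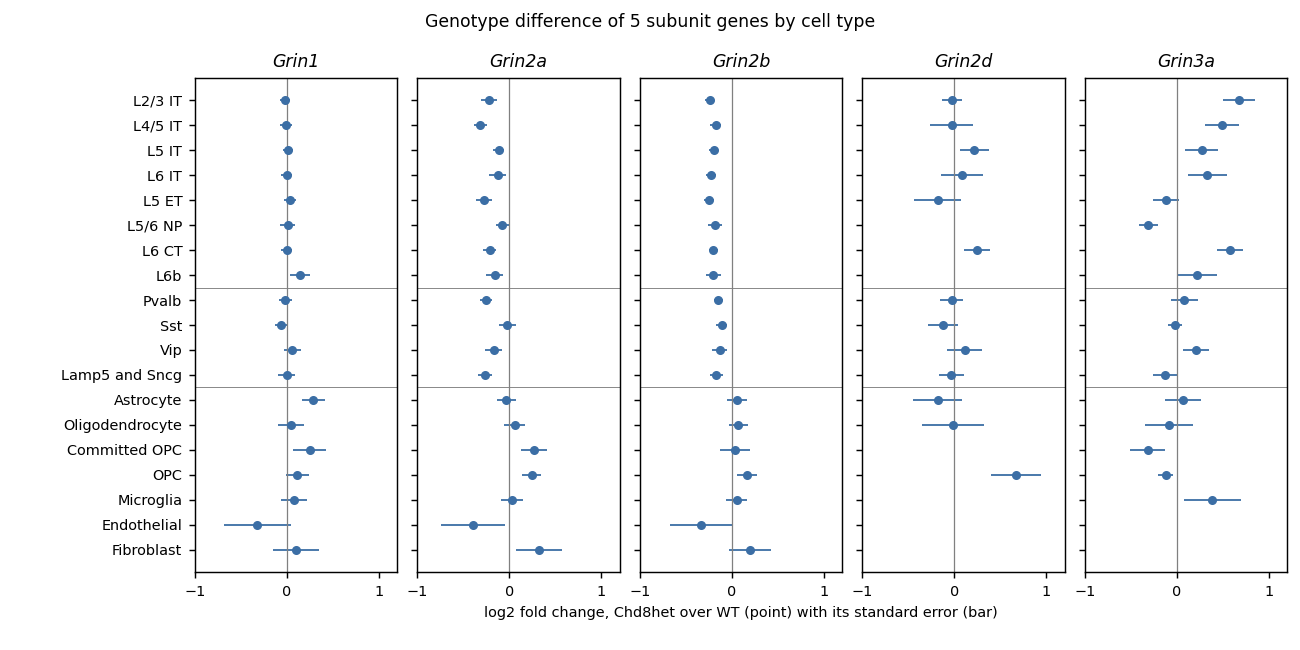
Log2 fold change of Chd8het over WT on the x axis, as a point with its standard error, for 5 subunit genes in the cell types where each could be tested. Grin2b lies below 0 in all 8 excitatory and all 4 interneuron types, Grin1 between -0.06 and 0.14 in neurons, and no value passes adjustment.

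Other properties of the libraries moved with the same genes. Index type was called for 35 member tests with a lower and 1 with a higher level in single-indexed libraries, against 7.53% and 6.76% of all tests. For this term Grin2a and Grin2b were each called lower in single-indexed libraries in 14 of 19 types, with median log2 differences of -0.43 and -0.36. Sex was called for 0 member tests in edgeR, 10 of which had an unadjusted p under 0.05, against 0.145% and 8.7% of all tests. Genes that span over 300 kb, as Grin2a and Grin2b do, had a median log2 difference of -0.14 for index type and -0.02 for genotype in the pooled excitatory nuclei, against 0.0042 and -0.0003 for all genes. In interneurons these medians were -0.20 and -0.03, against 0.012 and 0.0035. Of the genes over 300 kb, 56.5% in excitatory nuclei and 63.4% in interneurons were lower in Chd8het, against 50.1% and 48.8% of all genes. In single types the median of these long genes ran from -0.04 (layer 5 ET) to 0.02 (layer 6 IT) over the excitatory types, below 0 in 6 of 8, and from -0.05 (Vip) to 0.0022 (Sst) over the interneuron types, below 0 in 3 of 4. Over all 19 types it was below 0 in 11, with the highest value, 0.16, in fibroblasts. Grin2b values were -0.25 in layer 5 ET neurons, where this median was lowest among excitatory types, and -0.23 and -0.20 in layer 6 IT and CT neurons, where it was above 0. Among interneurons they were -0.13 in Vip, where the median was lowest, and -0.11 in Sst, where it was above 0. The part of gene span in the Grin2a and Grin2b values was not tested.

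The WT and Chd8het libraries overlapped in the ratio of Grin2a to Grin2b in the pooled excitatory nuclei and interneurons. In the pooled excitatory nuclei its log2 was 0.15 ± 0.24 in WT and 0.16 ± 0.15 in Chd8het (SD, n = 4 each, two-sided exact permutation test, p = 0.886, smallest possible p = 0.0286). Within single-indexed libraries the difference was 0.08 and within dual-indexed ones -0.05. In the pooled interneurons it was 0.13 ± 0.05 in WT and 0.07 ± 0.09 in Chd8het (SD, n = 4 each, exact permutation test, p = 0.257), with a difference of -0.05 and -0.07 within the index types. The difference in interneurons, -0.06 over all libraries, was -0.03 without Chd8het male 2 and -0.09 without Chd8het female 2. Adjusted over the 17 types, 1 type by itself could not pass with 4 against 4 libraries, so the adjusted p (0.971 each) says nothing about single types. The lowest unadjusted p was in NP neurons, 0.73 ± 0.12 in WT and 0.84 ± 0.05 in Chd8het (SD, n = 4 each, exact permutation test, p = 0.171). Compared in pairs of same-sex, same-number libraries, the ratio was lower in Chd8het in 4 of 4 pairs in layer 4/5 IT neurons, by a mean difference of -0.13, and in Lamp5 and Sncg interneurons, by -0.09. In fibroblasts it was higher in 4 of 4 pairs, by 0.16. Each of these had a paired p of 0.125 (two-sided exact sign-flip test), the smallest that 4 pairs can give. With 17 types compared, such a p would turn up in some of them without any effect of genotype.

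Genes that act with the receptor were taken as a list of 61 in 5 roles: supply of co-agonists, scaffolds, kinases and calcium signalling, trafficking, and regulators of the subunit switch. Of 942 tests of these genes in the 19 types 0 were called in edgeR, 23 had an unadjusted p under 0.05 with a lower and 52 with a higher level, where 2.79% and 3.01% of all tests did. Of the 61 genes in the pooled excitatory nuclei, 30 were lower in Chd8het with a median log2 fold change of 0.0014, and in the pooled interneurons 28 of 60 with a median of 0.0041. The medians of all genes were -0.0003 and 0.0035. By role, tests with such an unadjusted p were 4 lower and 6 higher of 95 for co-agonist supply, 9 and 5 of 203 for scaffolds, and 8 and 26 of 374 for kinases, phosphatases and calcium signalling. They were 2 lower and 5 higher of 186 for trafficking, and 0 and 10 of 84 for regulators of the subunit switch. In the pooled excitatory nuclei the median log2 fold changes were 0.07, -0.02, 0.02, 0.0014 and 0.05 in the same order.

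The list's smallest p belonged to Ddo in astrocytes. Ddo encodes D-aspartate oxidase, which removes D-aspartate, an agonist of the receptor. WT libraries had 69.0, 71.6, 90.4 and 61.2 CPM and Chd8het libraries 37.2, 37.6, 39.2 and 40.2 CPM, with no overlap. Of the 942 tests of the list, 20 had genotypes that did not overlap, against 1.97% of all tests. The log2 fold change was -0.91 ± 0.14 (SE, adjusted p = 0.109 in edgeR's test), the adjusted p with the pairs as a block was 0.0626, and DESeq2 gave 0.0395. The next was Ptk2b, a calcium-dependent tyrosine kinase, in Lamp5 and Sncg interneurons, with 17.0 to 35.04 CPM in WT and 40.3 to 55.8 CPM in Chd8het, a log2 fold change of 0.70 ± 0.18 (SE, adjusted p = 0.473 in edgeR's test).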

How the data were processed

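The deposited files held whole-number UMI counts per gene and barcode for each of the 8 libraries, not normalized. Per the submitters' processing notes, STAR 2.7.9a, STARsolo, Cell Ranger and the mm10 build were named. The annotation, strand setting and use of intron reads are not given in the sources used here. Raw reads were not used here.

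Nuclei with at least 500 genes and at most 5% mitochondrial UMIs were kept (82168) and clustered, doublets included, with Leiden at resolution 1.5 on 2985 variable genes without the subunit genes (scanpy 1.11.5) into 59 clusters. The 4278 doublets predicted by Scrublet (5.21%) were then removed, before any counts were summed, and 12 clusters with over 30% of them were left unnamed. Of the 59 clusters, 30 were named, each with at least 3 of its listed markers raised 2-fold. Counts were summed per library and type, CPM are those counts scaled to a common total of 1000000 UMIs, and log2(CPM + 1) was used for levels. Genotype was tested in edgeR 4.0.16 (TMM factors, terms for sex and index type, genes filtered at a minimum count of 10), with DESeq2 1.42.0 as an alternative. On simulated counts with known changes in layer 2/3 IT neurons (16602 genes), the test recovered 83 of 100 genes changed 2-fold and 44 of 100 changed 1.5-fold, and in OPCs (9788 genes) 71 and 37. The simulated counts held no effect of sex or index type. Changes as small as those of Grin2a and Grin2b were not simulated, so their recovery is not known. The ratio was tested with exact permutation tests over libraries.

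The labels describe pairs matched for litter and sex without naming them. Same-sex, same-number libraries were taken as pairs and entered as a block in an alternative fit. Their deviations from the genotype means correlated above 0.1 in every pair in 20 of 22 sets of nuclei. Libraries of such a pair also share sex and index type, which the deviations still hold. The correlations therefore cannot show which libraries are litter pairs. The number also marks index type. The protocol in the labels names 4 pairs of mice for the 8 samples.

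Gene spans come from GENCODE M21 (GRCm38), which matched 32235 of 32285 gene identifiers. All 7 members are described. Genes of the list of 61 are named where called, otherwise the 2 with the smallest p, and the 3 genes most like each member are named for members of at least 5 CPM. The members, lists and naming thresholds were chosen with earlier results of these data known.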

Additional observations from a re-analysis of the deposited data

Results flagged for a closer look

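In groups of 4 libraries the log2 Grin2a to Grin2b ratio was looked at for a single library far from the others, in 38 groups of which chance would mark about 1 in 20. In Pvalb interneurons WT male 1 stood apart at 0.05, with the other WT libraries between -0.16 and -0.12, and its gap was 0.842 of the range. It is also the library with the smallest share of cluster 19. In astrocytes Chd8het female 1 stood apart at -0.77, with the others between -0.59 and -0.58 and a gap of 0.937 of the range. In OPCs the same library stood apart at -0.44, with the others between 0.11 and 0.19 and a gap of 0.872 of the range. OPC sums held 123 to 407 Grin2a UMIs per library, and the OPC level per nucleus was near that of microglia, the gauge of free RNA.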

How the results depend on the processing

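No member was called for genotype in any of the alternatives except the fit without a count filter, which called 5 (Grin2a in layer 4/5 IT, layer 5 ET and Pvalb, Grin2b in layer 6 IT and layer 5 ET), and called Grin2a in the pooled interneurons (-0.1975, adjusted p = 0.004378 in edgeR's test). The number of genes called over the 19 types, 40 with all libraries, was 53 with the replicate block, with 0 member calls. It was 0 with sex alone as a term, 137 with DESeq2, 818 without a count filter and 20 with nuclei named by their own marker score. Leaving out 1 library gave 8 (either WT male) to 311 calls (Chd8het female 2). Why the counts moved was not tested.

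Values near 0 changed sign when 1 library was left out. Grin1 then ran from -0.02177 to 0.006622 in excitatory neurons (0.001628 without WT male 1) and from -0.05503 to 0.01935 in interneurons (0.0005869 without Chd8het female 1). In interneurons Grin2d ran from -0.1429 to 0.02974 (0.01569 and 0.001093 in the other reversals). Grin3a ran from -0.03482 to 0.09483 (also -0.02858, -0.01443, -0.0091 and -0.008197), and with nuclei named by their own marker score it was -0.06783. The genotype difference of the ratio in excitatory neurons ran from -0.08539 to 0.1015 (also -0.04281 and -0.006877), and was -0.007361 with nuclei named by their own marker score. In interneurons it stayed below 0, from -0.09427 (exact permutation p = 0.08571) to -0.02581 when 1 library was left out, and was -0.02315 with nuclei named by their own marker score.

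The 3 steps in the order of the ratio became 0 with nuclei named by their own marker score. They were 0 in each of the 8 fits that left out a library, where the smallest possible p is 0.01562 and at least 6 of the 16 steps would have to reach it to pass. The 0 steps in the order of levels became 22 with doublets kept, 20 with stricter nucleus filters and 20 per nucleus. Low counts limit Grin3b, Grin2c outside astrocytes and Grin2d in glia.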

Other observations

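The Grin2a to Grin2b ratio was also compared between the sexes, a comparison chosen after its values were seen. In the pooled excitatory nuclei of the named types the log2 ratio was 0.30 ± 0.08 in males and 0.01 ± 0.12 in females (SD, n = 4 each), with the lowest male at 0.23 and the highest female at 0.12 (two-sided exact permutation test, p = 0.0286, the smallest that 4 against 4 can give). The difference was 0.42 where 1 index was used and 0.16 in the dual-indexed libraries. In layer 2/3 IT neurons it was 0.40, with no overlap, and over 17 types the adjusted p there was 0.208 (exact permutation tests). Males had the higher mean in 11 of 17 types. In the pooled interneurons the difference was -0.02. The sex term was called for 0 of 89 member tests in edgeR, 10 with an unadjusted p under 0.05, 6 of them in Grin2a, against 8.7% of all tests with such a p. The litters of the animals are not named in the labels, so sex and litter cannot be told apart. If same-sex, same-number libraries come from litter mates, the libraries of 1 sex are not independent. The exact tests between the sexes do not allow for this.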
